A study of Mus musculus with 8 samples.

Results

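Excitation-contraction coupling is the step by which an electrical signal on the muscle fibre membrane releases calcium from the internal store. The genes described here are 10 of its parts, found as 16 probe sets of the 22626 on the array that are not controls. A probe set was taken where the platform annotation names exactly 1 gene symbol and that symbol is Cacng1, Cacna1s, Cacnb1, Ryr1, Atp2a1, Atp2a2, Casq1, Casq2, Sln or Pvalb, and all 10 genes had at least 1. RNA came from the diaphragm, the muscle that drives breathing, of 8-week-old mice and was read on Affymetrix arrays. The dystrophic group was 4 pools from dy/dy mice, a strain with laminin-deficient muscular dystrophy, and the normal group was 4 pools from the mice labelled as controls for dy/dy. Each pool held muscle of 3 mice, so 12 mice stand behind each group, and the spread between single mice is not seen. The sources used here give no treatment, sex or strain background for either group.

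In skeletal muscle a voltage sensor in the transverse tubule membrane, the L-type calcium channel, opens the ryanodine receptor of the sarcoplasmic reticulum. Calcium then leaves the store, where calsequestrin holds it, and starts contraction. Pumps of the SERCA family return it to the store, sarcolipin restrains those pumps, and in fast fibres parvalbumin binds calcium in the cytosol and speeds relaxation. Fast and slow fibres differ in the forms they use. SERCA1, calsequestrin 1 and parvalbumin are typical of fast fibres, and SERCA2 and calsequestrin 2 are typical of slow fibres and of the heart.

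Values are MAS5 signals, an Affymetrix intensity measure on a linear scale, after every array was rescaled to the same trimmed mean. Each log2 difference subtracts the normal mean of log2(signal + 16) from the dystrophic mean, with a 95% interval from limma, a linear model that shares the estimate of spread across probe sets. A change was called at an adjusted p under 0.05 after Benjamini-Hochberg adjustment over 13575 probe sets. The lowest 40% of probe sets by mean log2 value, below a signal of about 122, were not tested. Of the 16 member probe sets 14 passed this filter, and the other two, 1 of Cacnb1 and 1 of Sln, are described by their signals.

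Lama2, the laminin chain named by the disease, had signals of 333, 239.7, 275 and 232 in dystrophic pools, against 793, 982, 859 and 749 in normal pools (log2 difference -1.60, limma adjusted p = 8.91e-04). On the first principal component dystrophic replicate 3, at 33.97, and normal replicate 4, at -36.13, stood farthest from the rest, which ran between -11.47 and 12.52. Signals of the spike-in transcripts added to the RNA divided the arrays into 3 sets, with replicate 1 of both groups in the first, replicate 3 of both in the next, and replicates 2 and 4 of both in the last. Liver transcripts were high in dystrophic replicate 3, where Alb, serum albumin, had a signal of 18038.5, against 905 to 3245 in the other dystrophic pools and 521 to 1347 in normal pools. Fast and slow contractile markers were bright in every pool, and the summed signal of 6 heart muscle markers was 413 to 617 in dystrophic and 442 to 556 in normal pools, with 4 of the 6 too dim to be tested.

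Cacng1, the gamma subunit of the skeletal muscle calcium channel, was the 1 member that rose. This subunit is an auxiliary part of the voltage sensor that in mice limits the calcium current. Its probe set 1422813_at had signals of 1024, 907, 1047 and 970.2 in dystrophic pools, against 591, 364, 358 and 377 in normal pools. All 4 dystrophic pools lay above all 4 normal pools, and normal replicate 1 was the highest of the normal ones. The mean signal was 987 ± 62.0 in dystrophic and 422 ± 112 in normal pools (SD, n = 4 each). The log2 difference was 1.22 (SE 0.17), a 2.33-fold rise with a 95% interval of 1.81 to 3.01, and the limma adjusted p was 0.00776.

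Over all tested probe sets 0.457% were called higher and 0.0368% lower, and among the 14 tested member probe sets the calls were 1 higher and 0 lower. An unadjusted p under 0.05 was found for 4 of the 14, against 9.72% of all tested probe sets. Within the 3 spike-in sets the Cacng1 difference was 0.78 in replicate 1, 1.51 in replicate 3 and 1.30 in replicates 2 and 4. It stayed called with any 1 array left out, at 1.16 to 1.39, including without dystrophic replicate 3 (1.19, limma adjusted p = 0.0359) and without normal replicate 4 (1.18, limma adjusted p = 0.0239). Without both of those arrays the size was 1.15 and the call was lost (limma adjusted p = 0.0855).

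The other subunits of the voltage sensor were not called. Cacna1s, which encodes the pore-forming subunit that senses voltage, had signals of 2169, 2469, 1886 and 2959.7 in dystrophic pools, against 3208, 2751, 2648 and 1701 in normal pools. The groups overlapped, with the lowest value in normal replicate 4 (log2 difference -0.10, 95% interval -0.54 to 0.34, limma adjusted p = 0.922). Cacnb1, the beta subunit that brings the channel to the membrane, had 1178, 1081, 1063 and 1116 in dystrophic pools on its brightest probe set, 1426108_s_at, against 1093, 865, 1049 and 653 in normal pools. The dystrophic pools were close together, and 2 of them lay above the highest normal pool (0.30, 95% interval -0.06 to 0.66, limma adjusted p = 0.597). Without normal replicate 4, its lowest pool, the difference was 0.15. Its probe set 1425777_at ran at 518 to 736 in dystrophic and 350.0 to 754 in normal pools (0.13, limma adjusted p = 0.899). The third, 1451834_at, was dim and untested, at 7.21 to 26.8 in dystrophic pools, against 5.97 and 8.19 in a pair of normal pools and 88.8 and 96.4 in the others.

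Within each pool the log2 value of Cacng1 was set against that of its partners, which shows unequal change and not a level of one gene against another. These pairs were chosen after the values were seen and are given with no test. Cacng1 minus Cacna1s was -1.07, -1.43, -0.84 and -1.59 in dystrophic pools, against -2.41, -2.86, -2.83 and -2.13 in normal pools. Cacng1 minus Cacnb1 was -0.20, -0.25, -0.02 and -0.20 in dystrophic pools, against -0.87, -1.21, -1.51 and -0.77 in normal pools. In both pairs the 2 groups did not overlap, and the mean shift was 1.33 against Cacna1s and 0.92 against Cacnb1.

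Of the 8 markers of regenerating fibres 7 rose, and these were Myh3, Myh8, Myl4, Myog, Chrna1, Ncam1 and Tnnt2, which developing or denervated fibres also express. The exception was Myod1, at 0.18, and of all 8214 tested genes 49 rose. Each gene stands by its brightest probe set, and the other probe sets of Ncam1 and Myl4 were too dim to be tested. Myog, a myogenic factor, lost its call with any 1 array other than dystrophic replicate 2 left out (1.28 to 1.59, limma adjusted p up to 0.115). Ncam1, an adhesion molecule, did so with any array other than dystrophic replicates 1 and 2 left out (1.24 to 1.46, limma adjusted p up to 0.121). Tnnt2, the troponin T of heart and developing muscle, did so without dystrophic replicate 4 (1.79, limma adjusted p = 0.0552). The summed signal of the list was 4925 to 7865 in dystrophic and 1624 to 1686 in normal pools. Of 7 tested macrophage markers 3 rose, with sums of 9421 to 10415 in dystrophic and 5376 to 7494 in normal pools. Of 6 fibroblast markers 2 rose, with sums of 36518 to 46217 in dystrophic and 25560.5 to 30477 in normal pools. No gene of these lists had a signal of 0, and their part in the Cacng1 result was not tested. In RNA of whole muscle, fewer or more cells of a type and less or more RNA per cell cannot be told apart.

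The tested genes whose profile over the 8 pools lay nearest to that of Cacng1 were Chrna1, Armh4, Lcn2, Apod and Peg3. The measure was the root mean square difference of log2 values, each gene centred on its own mean. It was 0.14 for Chrna1, 0.16 for Armh4, 0.19 for Lcn2, 0.20 for Apod and 0.21 for Peg3, against a median of 0.68 over the 8213 other tested genes. Group means were left in, so a gene this near Cacng1 also had a like difference between the groups. The differences below follow in part from that choice and are no separate result. Chrna1, the alpha subunit of the acetylcholine receptor at the nerve-muscle junction, had signals of 1046, 764, 969 and 934 in dystrophic pools, against 468, 350.3, 387 and 399.8 in normal pools. Its log2 difference was 1.18 (limma adjusted p = 0.00451). Peg3, an imprinted zinc finger gene, was also called on its brightest probe set, at 1.06 (limma adjusted p = 0.0133). The other tested probe sets of Peg3 were higher but not called, at 0.76 (limma adjusted p = 0.259) and 1.25 (limma adjusted p = 0.0782). Armh4 was called, at 1.17 (limma adjusted p = 0.0293). Peg3 lost its call without dystrophic replicate 4 (1.01, limma adjusted p = 0.0743), and Armh4 lost it with any 1 array other than normal replicate 1 left out (limma adjusted p of 0.0722 to 0.110). Apod, a lipid carrier, was at 1.14 (limma adjusted p = 0.0561), and Lcn2, which binds iron carriers of bacteria, was at 0.98 (limma adjusted p = 0.0743). Without normal replicate 1 both were called, Apod at 1.38 (limma adjusted p = 0.00411) and Lcn2 at 1.18 (limma adjusted p = 0.0107). Apod was also called with the replicate number as a block (limma adjusted p = 0.0352), with the spike-in set as a block (0.0306) and with array weights (0.0150), and Lcn2 with array weights (0.0209).

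**Figure D1:**
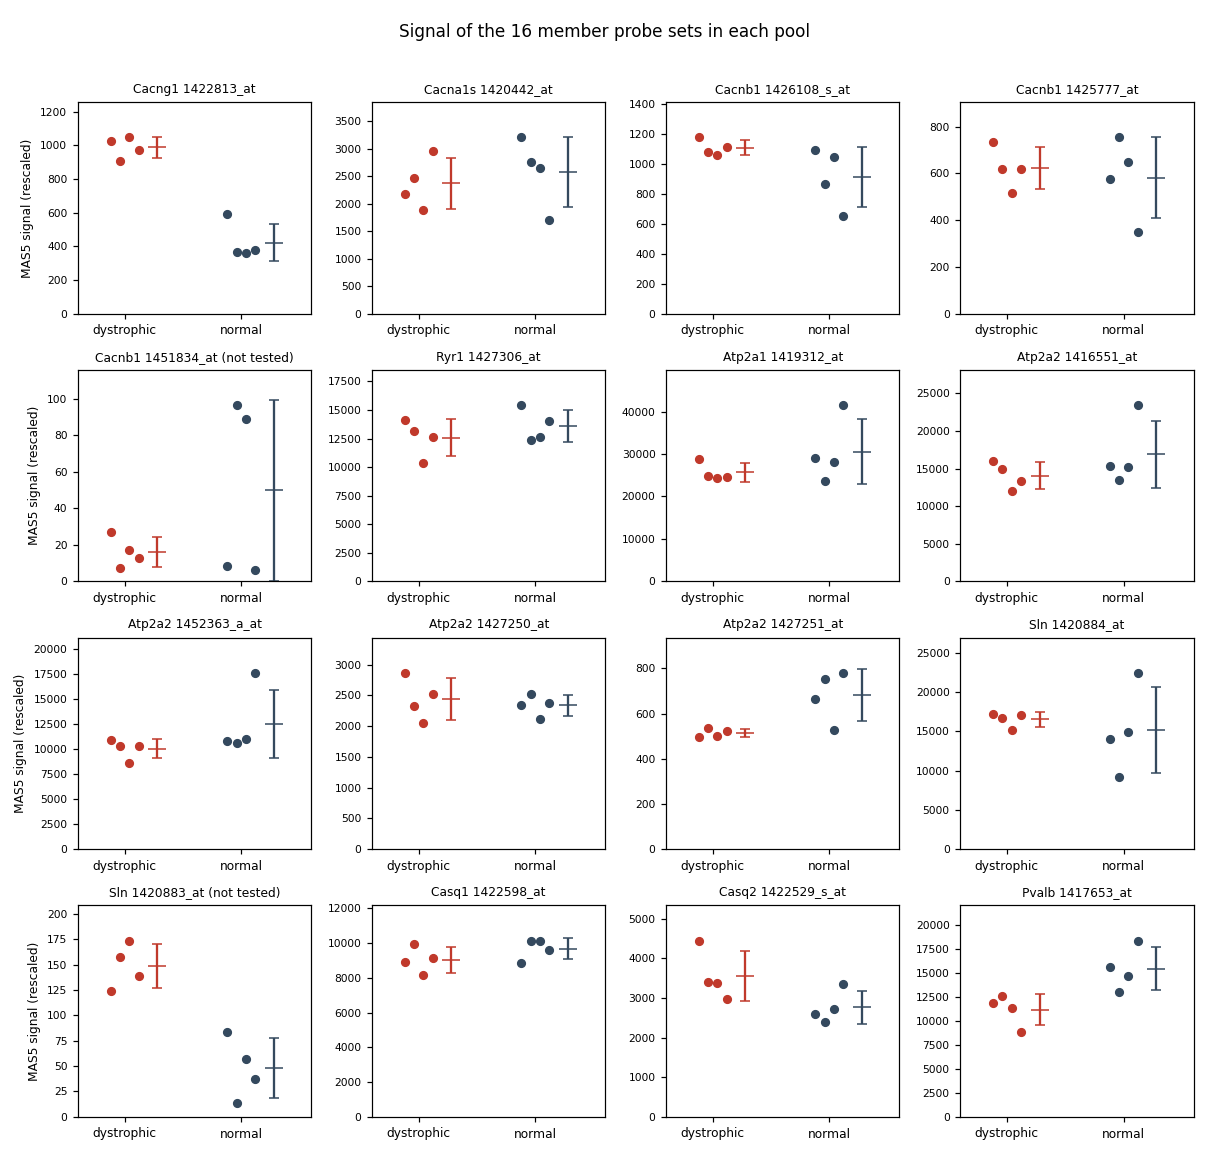
Rescaled MAS5 signal (linear y axes from 0) of the 16 member probe sets, with 1 point per pool, dystrophic on the left in red and normal on the right in dark blue, and the mean ± SD of 4 pools beside the points. Cacng1 had 907 to 1047 in dystrophic and 358 to 591 in normal pools, and Pvalb had 8839.6 to 12543 in dystrophic and 13016 to 18360.3 in normal pools.

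Ryr1, the calcium release channel of skeletal muscle, was not called. Its signals were 14140.1, 13171, 10373 and 12606 in dystrophic pools, against 15427, 12333, 12603 and 14002 in normal pools. The groups overlapped, with dystrophic replicate 3 the lowest pool of all (log2 difference -0.12, 95% interval -0.41 to 0.18, limma adjusted p = 0.845), and without that pool the difference was -0.03. The interval spans a fold of 0.753 to 1.13, so a change of the size seen for Cacng1 lies outside it.

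The calcium pumps showed no called change in either form. Atp2a1, which encodes the fast-fibre pump SERCA1, had signals of 28852, 24847, 24431 and 24501 in dystrophic pools, against 29034, 23545, 28234 and 41537 in normal pools. One normal pool, replicate 4, stood far above the other 7 arrays, and the rest overlapped (log2 difference -0.23, 95% interval -0.59 to 0.14, limma adjusted p = 0.725). Without normal replicate 4 the difference was -0.07, and after quantile normalization it was 0.01.

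Atp2a2, which encodes SERCA2 of slow fibres and heart and a form found in most cells, had 4 probe sets, and the sources used here do not say which transcript forms each one reads. The brightest, 1416551_at, had 15968, 14978, 12013 and 13345 in dystrophic pools, against 15414, 13432, 15229.5 and 23456 in normal pools (-0.24, 95% interval -0.62 to 0.15, limma adjusted p = 0.725). Normal replicate 4 was again the highest pool, and without it and dystrophic replicate 3 the difference was 0.01. The probe set 1452363_a_at overlapped as well, at 8627 to 10886 in dystrophic and 10578 to 17587.5 in normal pools (-0.29, limma adjusted p = 0.641), and was at -0.11 without normal replicate 4. The probe set 1427250_at lay at 2049 to 2865 in dystrophic and 2108 to 2524 in normal pools (0.05, limma adjusted p = 0.942). The dimmest of the 4, 1427251_at, had 498, 534, 502 and 521 in dystrophic pools, against 663, 755, 527 and 781 in normal pools. There 3 dystrophic pools lay below all normal pools, and dystrophic replicate 2 lay just above normal replicate 3 (-0.38, 95% interval -0.70 to -0.06, unadjusted p = 0.0224, limma adjusted p = 0.407).

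Set against each other within a pool, the brightest probe sets of the 2 pump genes kept nearly the same difference in both groups. Atp2a1 minus Atp2a2 was 0.85, 0.73, 1.02 and 0.88 in dystrophic pools, against 0.91, 0.81, 0.89 and 0.82 in normal pools on the log2 scale. The means were 0.87 ± 0.12 in dystrophic and 0.86 ± 0.05 in normal pools (SD, n = 4 each), a shift of 0.01, and the high values of normal replicate 4 do not appear in this difference.

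**Figure D2:**
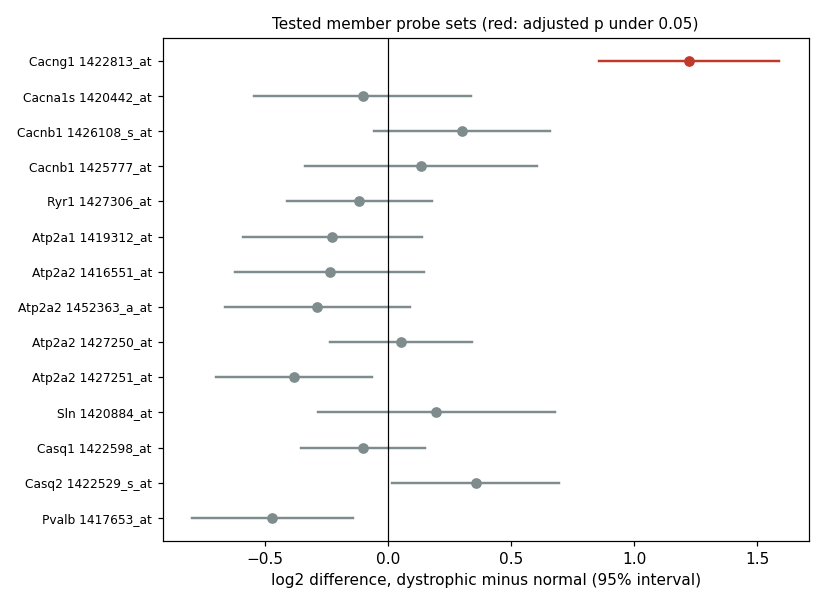
Log2 difference, dystrophic minus normal, of the 14 tested member probe sets (points) with 95% intervals from limma (lines), in red where the adjusted p is under 0.05. Cacng1, at 1.22 with an interval of 0.86 to 1.59, is the 1 probe set in red, and the other 13 lie between -0.47 and 0.36.

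Sln, which encodes the pump regulator sarcolipin, was read by 2 probe sets that disagreed. The bright one, 1420884_at, had 17222, 16693, 15113 and 17023 in dystrophic pools, against 14065, 9111, 14918 and 22436 in normal pools. The dystrophic pools were close together and lay inside the range of the normal pools (log2 difference 0.20, 95% interval -0.29 to 0.68, limma adjusted p = 0.839). The sign rested on normal replicate 2, without which the difference was -0.02, and without normal replicate 4 it was 0.41. The dim one, 1420883_at, had 125, 157, 174 and 139 in dystrophic pools, against 84.1, 13.8, 56.7 and 37.0 in normal pools, and its groups did not overlap. It was too dim to pass the filter, its lowest normal value lay under the 32.2 reached by the negative controls, and in a fit with no filter it was at 1.49 and not called (limma adjusted p = 0.183).

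The tested genes nearest in profile to the bright Sln probe set were Cxcl16, Tubgcp2, Sptlc2, Rpl35 and Cenpx, at 0.15 to 0.17 against a median of 0.42. None of the 5 was called, with limma adjusted p of 0.699 for Cxcl16, 0.870 for Tubgcp2, 0.752 for Sptlc2, 0.841 for Rpl35 and 0.989 for Cenpx. The same measure picks genes with a difference like that of Sln, so the lack of calls follows in part from the choice.

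Neither calsequestrin, the proteins that hold calcium in the store, was called. Casq1, the main form of fast fibres, had signals of 8913, 9955, 8133 and 9125 in dystrophic pools, against 8833, 10118, 10142 and 9617 in normal pools. The groups overlapped and the spread within them was small (log2 difference -0.10, 95% interval -0.35 to 0.15, limma adjusted p = 0.840), and without dystrophic replicate 3 the difference was -0.05. Casq2, the form of slow fibres and heart, had 4453, 3409, 3385 and 2981 in dystrophic pools, against 2594, 2385, 2723 and 3366 in normal pools. Of the dystrophic pools 3 lay above all normal pools, and normal replicate 4 lay above dystrophic replicate 4. On these rescaled values the log2 difference of Casq2 was 0.36 (95% interval 0.02 to 0.69, unadjusted p = 0.0404), and it did not pass the test (limma adjusted p = 0.485). The overlap came with the rescaling, which raised normal replicate 4 and lowered the other arrays. As deposited, all dystrophic pools of Casq2 lay above all normal pools, and it was not called either (log2 difference 0.44, limma adjusted p = 0.313).

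Within a pool Casq1 minus Casq2 was 1.00, 1.54, 1.26 and 1.61 in dystrophic pools, against 1.76, 2.08, 1.89 and 1.51 in normal pools on the log2 scale. The mean was 1.35 ± 0.28 in dystrophic and 1.81 ± 0.24 in normal pools (SD, n = 4 each), a shift of -0.46 toward Casq2. The groups overlapped through normal replicate 4, which lay below dystrophic replicates 2 and 4. As with the other pairs, no test was made.

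The promoters of the 2 calsequestrin genes are shown because these are the fast and slow forms of the store protein compared within pools above. The sequences are RefSeq's, build GRCm38.p6, from 250 bases before to 50 after the transcript start, 5′ to 3′ on the strand of the gene. Capitals mark each E-box, the motif CANNTG that myogenic factors of the MyoD family can bind and that reads the same on both strands. Casq1 lies on the minus strand at chr1:172219846-172220145 and Casq2 on the plus strand at chr3:102086165-102086464.
Casq1: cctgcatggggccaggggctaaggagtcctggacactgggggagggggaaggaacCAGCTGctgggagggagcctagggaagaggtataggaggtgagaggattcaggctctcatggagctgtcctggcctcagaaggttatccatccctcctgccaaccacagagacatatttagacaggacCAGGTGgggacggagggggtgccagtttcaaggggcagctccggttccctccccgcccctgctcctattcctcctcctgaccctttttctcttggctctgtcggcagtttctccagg
Casq2: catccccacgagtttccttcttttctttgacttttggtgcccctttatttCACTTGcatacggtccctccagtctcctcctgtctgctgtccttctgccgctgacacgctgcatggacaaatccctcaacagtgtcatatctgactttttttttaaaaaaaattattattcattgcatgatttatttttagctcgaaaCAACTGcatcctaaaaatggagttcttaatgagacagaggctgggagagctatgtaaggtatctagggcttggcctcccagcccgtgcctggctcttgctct
Each held 2 E-boxes, and 72.3% of the 32851 promoters of the table held at least 1. One E-box of Casq1 was the form CAGCTG, found in 16.3% of all promoters, and neither of those of Casq2 was. The consensus of MEF2, a muscle transcription factor, had 1 match in the Casq2 window and 0 in that of Casq1, against a share of 3.19% of all promoters with a match. The table held a promoter for 7 of the 10 genes, and Cacng1, Atp2a2 and Sln are not among them.

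Pvalb, parvalbumin, had the lowest log2 difference of the tested members. Its signals were 11858, 12543, 11322 and 8839.6 in dystrophic pools, against 15579, 13016, 14688 and 18360.3 in normal pools. All 4 dystrophic pools lay below all 4 normal pools, with dystrophic replicate 4 the lowest and, after rescaling, normal replicate 4 the highest. The mean was 11141 ± 1613 in dystrophic and 15411 ± 2235 in normal pools (SD, n = 4 each), a log2 difference of -0.47 (95% interval -0.80 to -0.14, unadjusted p = 0.00898). It did not pass the adjusted test (limma adjusted p = 0.282). The difference was -0.39, -0.38 and -0.55 in the spike-in sets of replicate 1, replicate 3 and replicates 2 and 4. On the rescaled values, groups without overlap were found in 6.4% of all tested probe sets, and among the 14 tested members in Cacng1 and Pvalb.

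Contractile markers of the fibre types are given beside Casq2 and Pvalb. Among 9 tested fast-fibre markers, each by its brightest probe set, limma called 0, and 0 had an unadjusted p under 0.05. Their median log2 difference was -0.23, and their summed signal was 136923 to 152280.0 in dystrophic and 140399 to 222760.0 in normal pools, or up to 166550.0 without normal replicate 4. The brightest were Tnni2, fast troponin I, at -0.25, and Myl1, a fast myosin light chain, at -0.36. Without normal replicate 4 Tnni2 was at -0.10, and after quantile normalization it was at -0.04. Myl1 ran between -0.46 and -0.17 with 1 array left out, and between -0.46 and -0.09 over all alternative fits. Among 8 slow-fibre markers limma called 0 and 1 had an unadjusted p under 0.05, with a median of 0.25 and sums of 81233 to 85175 in dystrophic and 61492 to 81929 in normal pools. The brightest were Myl2, the slow regulatory light chain, at -0.10, and Myoz2, a Z-disc protein of slow fibres, at -0.000232, and these were the 2 of the 8 below 0. The other 6, chosen for mention after their values were seen, ran between 0.07 for Myl3 and 0.38 for Tnni1. Among them Myh7, the slow myosin heavy chain, at 0.25, and Tnnt1, slow troponin T, at 0.25, had all dystrophic pools above all normal pools, and neither was called (limma adjusted p of 0.520 for Myh7 and 0.509 for Tnnt1). Of the 9 fast-fibre markers 7 lay below 0 and 2 above. Among these Tnnt3, fast troponin T, also named after its value was seen, was at -0.23 and not called (limma adjusted p = 0.608). Its dystrophic pools, at 16500 to 17231, all lay below its normal pools, at 17366 to 23158. The part of fibre type in the Casq2 and Pvalb values was not tested.

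**Figure D3:**
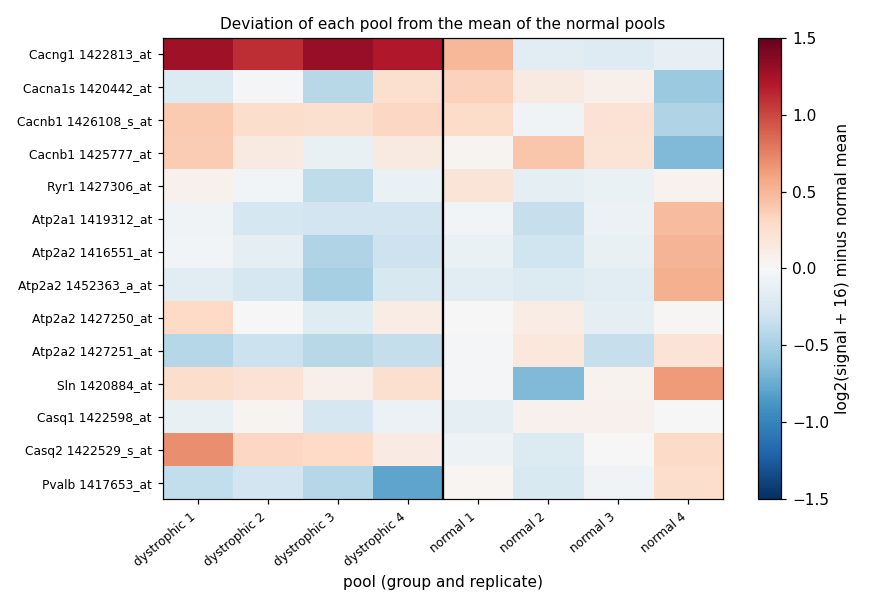
Deviation of each pool from the mean of the normal pools, in log2(signal + 16), for the 14 tested member probe sets (rows) in dystrophic replicates 1 to 4 and then normal replicates 1 to 4 (columns), red above and blue below the normal mean. The Cacng1 row is red in all 4 dystrophic pools, the Pvalb row is blue in all 4, and normal replicate 4 is red for Sln and the brightest probe sets of both pumps and blue for Cacna1s and Cacnb1. All 4 dystrophic pools also lie above the normal mean for Casq2, Sln and Cacnb1 1426108_s_at. They lie below it for Atp2a1 and Atp2a2 1416551_at, 1452363_a_at and 1427251_at.

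**Figure D4:**
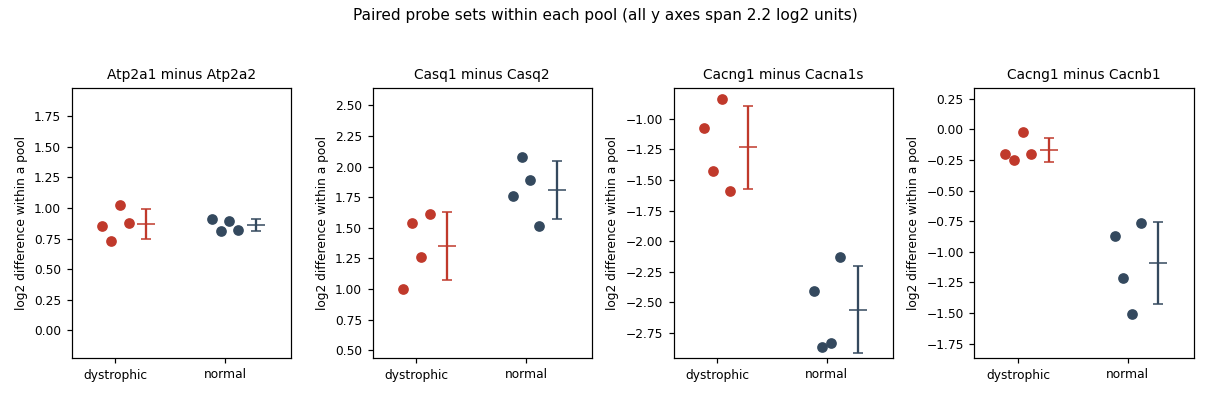
Log2 difference between 2 probe sets within each pool for 4 pairs (panels), with 1 point per pool, dystrophic on the left in red and normal on the right in dark blue, and the mean ± SD of 4 pools beside them. All panels have y axes of the same span, and the groups are apart for Cacng1 against Cacna1s and against Cacnb1, overlap for Casq1 against Casq2, and differ by 0.01 for Atp2a1 against Atp2a2.

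Across the 10 genes, each by its brightest probe set, 4 lay above 0 and 6 below, against 51.5% below 0 over all tested genes, with a median log2 difference of -0.10 beside -0.01 over the 8214 tested genes. In 5 of the 10 genes normal replicate 4 was the highest normal pool after rescaling, which multiplied that array by 1.22. As deposited, Pvalb was highest in normal replicate 1 and Casq2 in normal replicate 3. The same share over all genes was not taken, and the rescaled median of normal replicate 4, 171.8, was the lowest of the 8 arrays. Among the 10 probe sets 6 were in the brightest 1% of the array. Whether signals so bright still follow RNA amount in proportion was not tested.

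A wider list of 65 other genes of muscle calcium handling was described in the same way. Of these 46 had a probe set with 1 symbol and 36 were tested. Limma called 0 of the 36, against 0.645% of all tested genes, and 4 had an unadjusted p under 0.05, against 10.8% of all tested genes. Their median was 0.01, with 19 above 0 and 17 below. The 4 were Cav3, Homer2, Ryr3 and Slc8a3.

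Cav3, caveolin 3, a membrane protein needed for normal transverse tubules, had signals of 1310.5, 1318, 1279.7 and 1330.5 in dystrophic pools, against 1047, 897, 1067 and 947 in normal pools. All dystrophic pools were higher and close together (log2 difference 0.40, unadjusted p = 0.00450, limma adjusted p = 0.200). Slc8a3, a sodium-calcium exchanger of the fibre membrane, had 346, 247, 189 and 222 in dystrophic pools, against 108, 187, 175 and 98.8 in normal pools. Its groups were apart by little, between dystrophic replicate 3 and normal replicate 2 (0.77, unadjusted p = 0.00884, limma adjusted p = 0.281).

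Ryr3, a ryanodine receptor that in mice is found in newborn muscle and in adult diaphragm, had 267, 338, 183 and 319.5 in dystrophic pools, against 195, 172, 173 and 166 in normal pools. Dystrophic replicate 3 lay inside the normal range and the others above them (0.58, unadjusted p = 0.0125, limma adjusted p = 0.317). Homer2, a scaffold protein that binds release channels, had 766, 766, 993 and 757 in dystrophic pools, against 1070.5, 1055, 1194 and 995 in normal pools, with no overlap (-0.39, unadjusted p = 0.0121, limma adjusted p = 0.313).

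By role, the 9 tested genes of the junction and triad ran between -0.50 for Jph2, a junctophilin that ties the store to the transverse tubule, and 0.40 for Cav3. The 7 tested genes of other release channels and of their partners ran between -0.41 for Homer1 and 0.58 for Ryr3. The 4 other store buffers ran between -0.15 for Calr, calreticulin, and 0.28 for Sdf4. The 7 calcium-activated kinases and phosphatase genes ran between -0.46 for Rcan1, a calcineurin regulator, and 0.29 for Camk2d. Pln, phospholamban, the relative of sarcolipin in slow fibres and heart, was at 0.28, and Cacna2d1, a further subunit of the voltage sensor, was at -0.10.

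**Figure D5:**
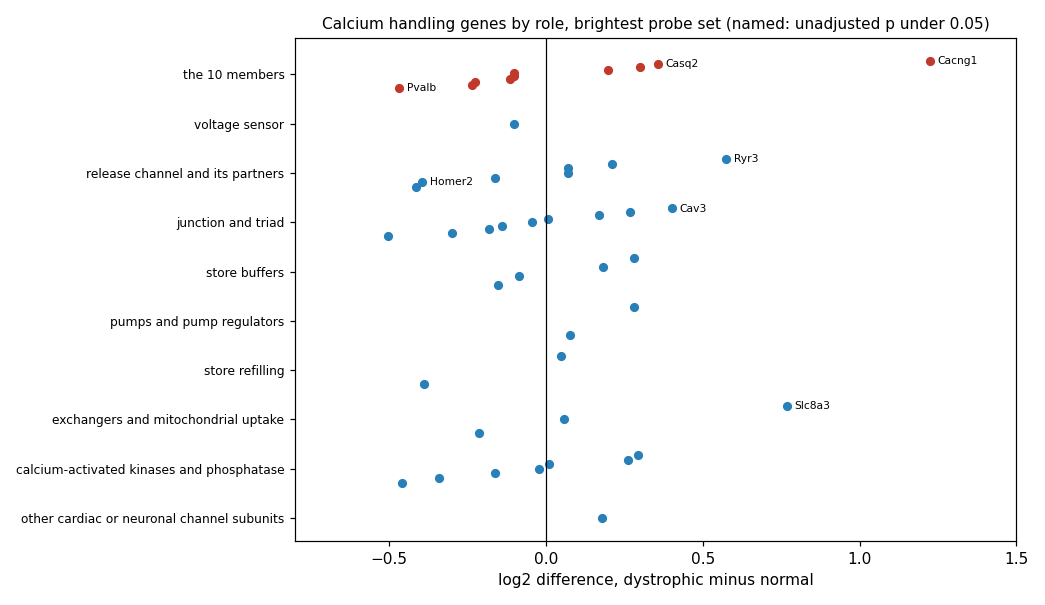
Log2 difference, dystrophic minus normal, of the 10 members (red, top row) and of the 36 tested genes of the wider calcium list (blue) by role, each gene by its brightest probe set, with names where the unadjusted p is under 0.05. Cacng1, at 1.22, lies farthest from 0, and the wider list runs from -0.50 to 0.77.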

How the data were processed

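RNA of dystrophic and normal diaphragm was measured on 8 arrays. Intensity values for 22690 probe sets, 64 of them controls, were deposited in 1 table, made with MAS5 per the submitters' processing notes, which name no version. As deposited, normal replicate 4 had a 2% trimmed mean of 400.2 and the other 7 arrays of 500.2, so all were rescaled to their mean, 487.7. The number of arrays limits the precision, and replicates are separate pools.

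Tests used log2(signal + 16) in limma 3.58.1 (R 4.3.3) with an intensity trend, without controls and the lowest 40% of probe sets, and with Benjamini-Hochberg adjustment. The fit was also run on simulated arrays with independent values for each probe set. These hold no effects shared across an array or a spike-in set, so they do not bear on such effects. Of the probe sets, 20380 had 1 symbol, 691 several and 1555 none, and single symbols were updated through a RefSeq table of GRCm38.p6 in which 20351 matched. A gene's brightest probe set stands for it. The members and lists were chosen with earlier results of these data known.

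Named genes are all members, Lama2, wider calcium list genes at unadjusted p under 0.05, the 5 nearest profiles to Cacng1 and Sln, and called or else the 2 brightest fibre markers. By-role extremes were named after their values were seen. Alternatives were offsets of 1 and 64, other scalings, filters and variance models, blocks, and arrays left out.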

Additional observations from a re-analysis of the deposited data

Results flagged for a closer look

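In each of the 16 member probe sets the 4 pools of each group were checked for a value far from the others by Dixon's criterion on the log2 scale, 32 checks in all, of which chance marks about 1 in 20. Of these 3 stood out. Cacng1 was high in normal replicate 1, at 591, with the other normal pools at 358 to 377. Atp2a1 was high in dystrophic replicate 1, at 28852, with the other dystrophic pools at 24431 to 24847. Atp2a2, on probe set 1452363_a_at, was high in normal replicate 4, at 17587.5, with the other normal pools at 10578 to 10954.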

How the results depend on the processing

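Cacng1 kept its call in 19 of 20 alternative fits, with log2 differences of 1.14 to 1.39, and no other tested member was called in any of them. Without normal replicate 4 and dystrophic replicate 3, which leaves 3 arrays a group, the member count was 0 and the count over all probe sets 31. That overall count was 67, and became 127 with array weights, 114 with the spike-in set as a block, 24 at a threshold of 0.01 and 25 to 61 with 1 array left out (34, 29 and 25 without dystrophic replicate 2, 3 or 4). With the replicate number as a block it was 105, and that block changed no member's call and, among the other named genes, gave a call to Apod (limma adjusted p = 0.0352). Deviations of same-numbered pools correlated at 0.484, -0.0455, 0.145 and 0.133 for replicates 1 to 4. Of these 3 were over 0.1, but not every pair was, nor did every pool correlate best with its own number, so the numbers were not taken to pair the pools. No gene of the wider list was called in any fit. Signs turned, with no call, in the cases that follow, whose cause was not tested. With quantile normalization Atp2a1 was at 0.011, Myoz2 at 0.17 and Myl2 at 0.097. With array weights Cacnb1 1425777_at was at -0.028 and Myoz2 at 0.092, as deposited Myoz2 was at 0.080, and as the mean of its probe sets Cacnb1 was at -0.080, while Sln by that mean kept its sign at 0.84 (limma adjusted p = 0.134). With 1 array or both end arrays left out the ranges spanned 0 for Cacna1s (-0.29 to 0.015), Cacnb1 1425777_at (-0.084 to 0.27), Atp2a2 1416551_at (-0.34 to 0.0058), Atp2a2 1427250_at (-0.026 to 0.14), Sln 1420884_at (-0.023 to 0.45), Myoz2 (-0.078 to 0.14), Cenpx (-0.097 to 0.24) and Tubgcp2 (-0.016 to 0.27). Within the spike-in sets, which have 1 or 2 arrays a group and no test, Atp2a2 1416551_at was at 0.051, Atp2a2 1452363_a_at at 0.010 and Casq1 at 0.013 in replicate 1, Cacnb1 1425777_at was at -0.32 and Atp2a2 1427250_at at -0.041 in replicate 3, and Cacna1s was at 0.32 and Atp2a2 1427250_at at -0.014 in replicates 2 and 4. Signals near the negative controls, which reach 32.2, limit the dim Sln and Cacnb1 probe sets, and with no filter that of Cacnb1 was at -0.68 (limma adjusted p = 0.842).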

Other observations

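Markers of other cell types were read in the same pools. Among 4 tested liver markers limma called 0 and 2 had an unadjusted p under 0.05, with sums of 1495 to 44263 in dystrophic pools, or up to 5455 without dystrophic replicate 3, and 1042 to 3074 in normal pools. Limma also called 0 of 3 smooth muscle, 4 endothelial, 2 adipocyte, 1 red cell and 2 nerve markers that were tested, and 1 endothelial and 1 nerve marker had an unadjusted p under 0.05. Summed nerve markers were at 3009 to 3757 in dystrophic and 2538 to 2913 in normal pools, without overlap. Pmp22 made up most of that sum, at 2379 to 2879 in dystrophic and 2021 to 2262 in normal pools. Mbp overlapped between the groups, and S100b was too dim to be tested, with means of 57.7 in dystrophic and 62.3 in normal pools. The sums of the smooth muscle, endothelial, adipocyte and red cell lists overlapped between the groups.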
